A study of Mus musculus with 6 samples.

Results

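Rab GTPases are small membrane switches that give vesicles and organelles their identity. The genes described here carry a Rab, Dennd or Tbc1d name followed by a digit in the gene table, with names ending in a pseudogene tag left out. The rule found 118 genes of 55401 in the table. They comprise 59 Rab GTPases, 10 partner proteins with a Rab name, 14 DENN genes, 30 TBC genes and 5 antisense transcripts. The rule uses names and no measured value, but the family was picked with earlier results of these data known.

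A Rab is active while it holds GTP and inactive while it holds GDP. Exchange factors, among them the DENN proteins, load GTP and switch a Rab on, and most TBC proteins speed the hydrolysis of GTP and switch it off. The active form recruits effectors that move, tether or fuse vesicles. In blood cells Rabs are best known for granule release, phagosome maturation and the recycling of surface receptors, and Rab27a is the classical granule Rab of cytotoxic cells and neutrophils.

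RNA came from bone marrow cells of 6 mice, each with a secondary transplant in a leukaemia model of the homeobox genes HoxA9 and Meis1. 3 libraries (Lym, mice 62, 63 and 87) hold lymphoid leukaemia stem cells from mice that were given such cells. The other 3 (Lin-, mice 56, 57 and 91) hold lineage-negative, Kit-positive leukaemic progenitors from mice that were given progenitors. All 6 mice thus carry the same leukaemia model and there is no normal control. Strain, age, sex and donor of each mouse are not given in the sources used here, and donors may be shared between mice. RNA input was 1 ng for Lym mouse 62 and 2 ng for the others. The libraries hold 18537700 to 22634286 reads assigned to genes, and 3 reads, taken as a floor for counting error, equal a normalized count of 2.64 to 3.36.

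The labelled cell types stood as follows on their markers. Kit was present in every library, with 18902, 12027 and 3158 normalized counts for Lym mice 62, 63 and 87, against 3420 to 6066 in Lin-. The 10 B-lineage markers summed to 56.6, 8.25 and 14.1 reads scaled to CPM for these Lym mice, with Lin- between 3.00 and 21.1. Among them Il7r was at 424, 82.8 and 14.3 normalized counts in Lym, with Lin- at 2.65, 3.52 and 4.13. Dntt was at 216, 29.1 and 4.76, Rag1 at 104, 2.24 and 1.91, and neither had a read in Lin-. Ebf1 was at 59.4, 6.71 and 14.3, with at most 1.76 in Lin-. These markers were highest in mouse 62, while Cd79b overlapped between groups, Cd79a reached at most 4.48 and Pax5 stayed under the floor in all 6 libraries. The Lym library of mouse 87 went against its label in its overall profile. On the first principal component over the 500 most variable genes it scored 26.4, among the Lin- libraries (3.86 to 36.4), while Lym mice 62 and 63 scored -52.5 and -32.9. The layout was alike over the 95 Rab, DENN and TBC genes that could be tested, where mouse 87 scored 2.24, the Lin- mice 1.00 to 3.25, and mice 62 and 63 -6.02 and -3.63. Results are therefore given with and without mouse 87.

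A normalized count is a gene's read count after division by the library's size factor. Differences are Lym minus Lin- on the scale log2(normalized count + 2), each with its standard error (SE), fitted with limma over the 14273 genes that reached 10 normalized counts in at least 3 libraries. Adjusted p-values are Benjamini-Hochberg values over all of those genes, and the threshold was 0.05. Of the 118 genes, 95 entered the test, namely 41 Rab GTPases, all 10 partners, all 14 DENN genes, 27 TBC genes and 3 antisense transcripts.

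No Rab, DENN or TBC gene passed the adjusted threshold in limma with all 6 libraries, and no gene of the whole table did (0.0% of 14273). edgeR also called 0, and DESeq2 called 3 of the 95 (Dennd5b, Rab32 and Rab37) beside 1.48% of all genes. At an unadjusted p under 0.05 limma gave 8 higher and 3 lower in Lym among the 95, or 11.6%, against 10.2% of all genes tested (5.96% higher and 4.27% lower). The share is near the background. The groups did not overlap in 16 of the 95, or 16.8%, against 15.6% of all genes tested, with 12 higher and 4 lower in Lym, where all genes gave 8.49% and 7.08%. The direction was less even, since 61 of the 95 had a difference above 0, or 64.2%, against 48.7% of all genes. The median difference was 0.11 on the log2 scale, against -0.01 over all genes tested. Differences were small, and 78 of the 95 (82.1%) were under 0.5 in size on the log2 scale, against 77.3% of all genes. In bulk samples like these, fewer cells of a type and less RNA per cell cannot be told apart.

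Without Lym mouse 87, limma put 12 of the 95 past the adjusted threshold, 11 higher and 1 lower in Lym. Over all genes it then called 9.57%, with 5.48% higher and 4.09% lower in Lym. The 12 were Dennd3, Dennd5a, Dennd5b, Rab11fip3, Rab11fip5, Rab21, Rab37, Rab6b, Tbc1d16, Tbc1d5, Tbc1d9b and, as the lower gene, Rab32. Since these genes were called by leaving out mouse 87, the place of that mouse in them is no result. At an unadjusted p under 0.05 limma then had 29 of the 95, beside 25.9% of all genes (13.3% higher and 12.6% lower). Groups did not overlap in 39 of the 95, 33 higher and 6 lower, beside 43.4% of all genes (21.7% in each direction). Of the 95 genes, Lym mouse 62 lay outside the Lin- range in 74.7%, mouse 63 in 64.2% and mouse 87 in 58.9%, beside 70.7%, 64.9% and 52.0% of all genes. Over the 95 genes mouse 87 lay nearer to the Lin- mean than to the mean of mice 62 and 63 in 69, or 72.6%, against 69.3% of all genes tested.

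**Figure D1:**
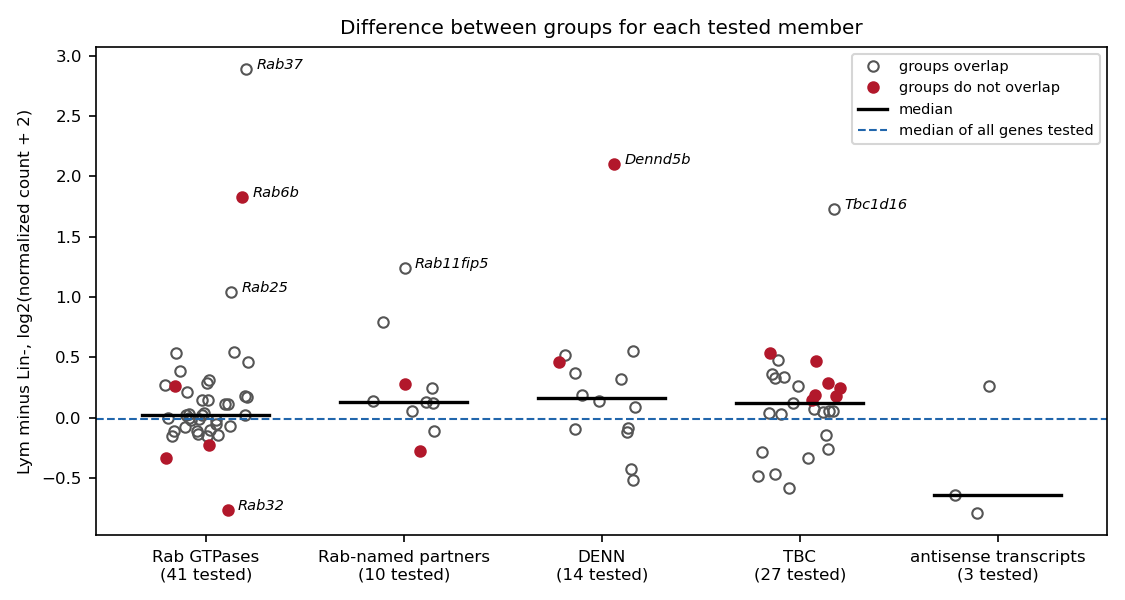
Each point is a tested gene, placed by subfamily, and the vertical axis is its Lym minus Lin- difference of log2(normalized count + 2). Filled points mark genes whose 3 Lym and 3 Lin- values do not overlap, black lines are subfamily medians (0.03 for Rab GTPases, 0.13 for partners, 0.17 for DENN, 0.12 for TBC), and the dashed line is the median of all genes tested at -0.01.

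The Rab GTPases expressed in these cells were led by Rab44 and Rab27a in both groups. Levels of different genes are given per kilobase (kb) of exon. Rab44, a large Rab with calcium-binding EF-hand motifs known from mast cells and osteoclasts, stood at 2462 ± 358 normalized counts per kb in Lym and 2208 ± 508 in Lin- (SD, n = 3 each). Rab27a stood at 1728 ± 178 and 1727 ± 93.4 per kb. Rab44 and Rab27a together with the secretory-pathway Rab2a and the late endosomal Rab7 held 36.9% to 41.0% of the summed per-kb level of the 41 tested Rabs in every library. Below them came Rab5c of early endosomes (989 ± 96.6 in Lym and 1037 ± 129 in Lin-) and Rab10 (904 ± 186 and 733 ± 73.6 per kb). Of the 41 tested Rabs, 30 averaged over 100 normalized counts per kb across the 6 libraries.

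**Figure D2:**
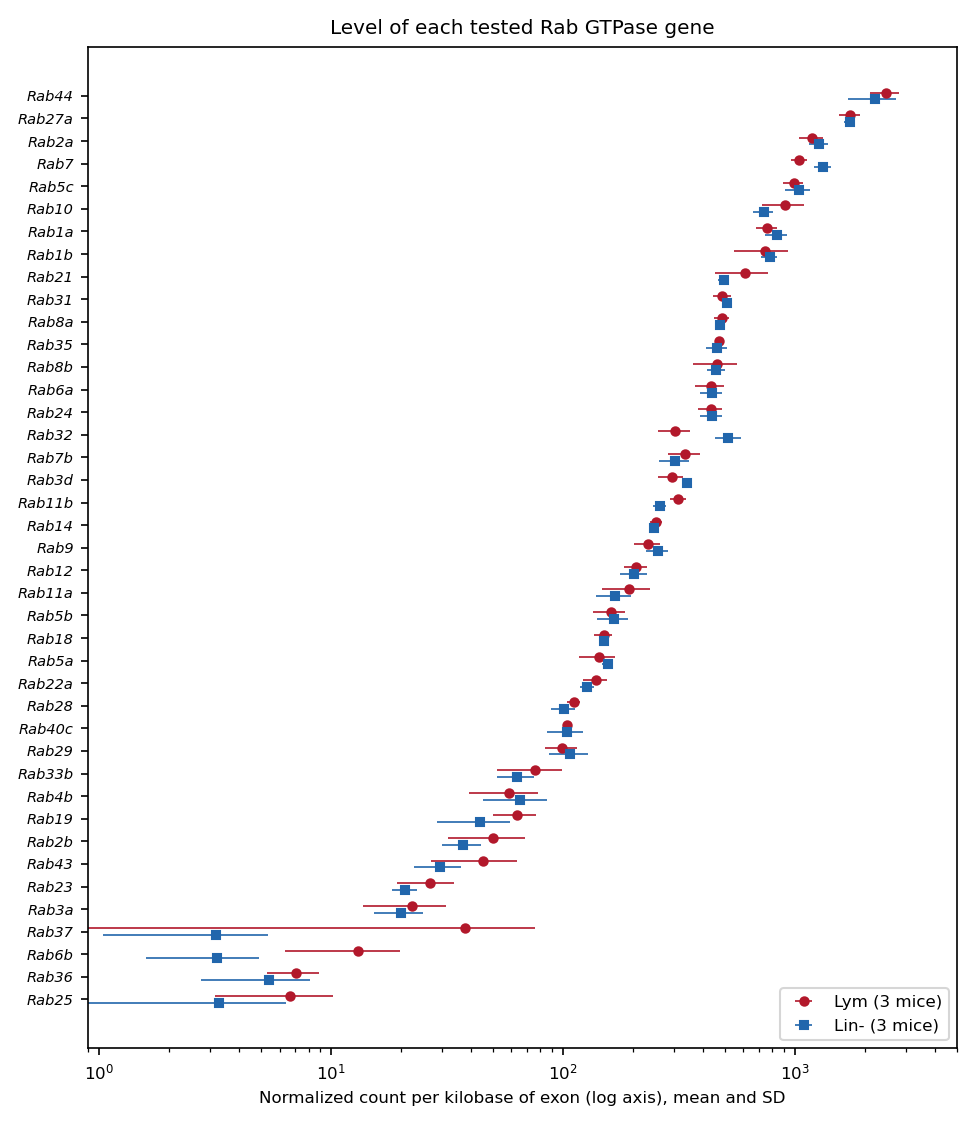
The horizontal axis, a log axis, is the normalized count per kb of exon for each of the 41 tested Rab GTPase genes, with the mean and SD of 3 Lym mice (red circles) and 3 Lin- mice (blue squares). Bars that reach below the axis are cut at the left edge. For Rab37 in Lym the SD exceeds the mean (37.8 ± 40.5 per kb), and its bar is drawn slightly shorter than the mean on both sides. The group means lie close together for most Rabs, and Rab37 and Rab6b at the low end lie apart, with Rab37 at 201 ± 216 normalized counts in Lym and 17.0 ± 11.4 in Lin- before division by length.

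For Rab44, Rab27a and Rab2a the groups overlapped, while Rab7, also among the leading Rabs, was lower in every Lym mouse, as given below. Rab44 was at 14564, 11393 and 11458 normalized counts for Lym mice 62, 63 and 87, against 8705, 13841 and 11004 for Lin- mice 56, 57 and 91. Its values overlapped, with a log2 difference of 0.17 ± 0.18 (limma adjusted p = 0.748). Rab27a was at 5975, 6782 and 7346 in Lym, with Lin- at 7095, 6622 and 6382, a log2 difference of -0.003 ± 0.12 (limma adjusted p = 0.994). Rab2a, which acts between the endoplasmic reticulum and the Golgi, was at 2385, 2306 and 2862 against 2687, 2466 and 2979, again with overlap. A p that misses the threshold does not show that the groups are alike. The whole class of Rab GTPases took up 3027 to 3204 CPM (reads scaled to a common library total) in Lym and 2984 to 3192 in Lin-.

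Rab32 had its 3 lowest values in the Lym mice, and it had the smallest unadjusted p of the 95 genes. Rab32 (chromosome 10, 10545002 to 10558265, minus strand, GRCm38) serves lysosome-related organelles and acts in macrophages. Its normalized counts were 615, 690 and 839 for Lym mice 62, 63 and 87, against 1383, 1168 and 1079 for Lin- mice 56, 57 and 91. The ratio of the means was 0.591, and the log2 difference was -0.76 ± 0.17 (limma unadjusted p = 0.00159, adjusted p = 0.42). Without mouse 87 the log2 difference was -0.88 with a limma adjusted p of 0.012. DESeq2 with all 6 libraries gave an adjusted p of 0.0133, while the authors' deposited table lists 0.0581. Summed reads of the 7 monocyte and macrophage markers moved with Rab32, at 227 to 394 CPM in Lym and 457 to 519 in Lin-. The 8 neutrophil markers summed to 2533 to 2824 CPM in Lym and 3237 to 6548 in Lin-. Most of that sum was Mpo, at 48014 to 55058 normalized counts in Lym and 57600 to 118583 in Lin-. Prtn3 was also lower in every Lym mouse, while Elane overlapped between groups. S100a8, S100a9, Camp, Ngp and Ltf were too low to test. The part of either list in the result was not tested.

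Rab7 and Rab3d were also lower in every Lym mouse. Rab7, the Rab of late endosomes and lysosomes (chromosome 6, 87999106 to 88045270), was at 2491, 2806 and 2890 in Lym, with Lin- at 3778, 3198 and 3353. The groups did not overlap, and the log2 difference was -0.33 ± 0.12 (limma adjusted p = 0.451). Rab3d, a Rab of regulated secretion, was at 1071, 1259 and 1369 in Lym, with Lin- at 1481, 1371 and 1446. The highest Lym value of Rab3d, in mouse 87, lay just under the lowest Lin- value, and the log2 difference was -0.22 ± 0.13 (limma adjusted p = 0.575). Over the 6 libraries Rab7, Rab5if and Rab3d were the members whose log2 values tracked Rab32 most closely, with Pearson correlations of 0.963, 0.926 and 0.879 across 6 libraries that fall into the groups compared. These are descriptions without a test.

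Rab37 and Rab6b had the largest differences toward Lym among the 41 tested Rabs. Rab37, first described on secretory granules of mast cells (chromosome 11, 115091431 to 115162236), was at 443, 134 and 26.7 for Lym mice 62, 63 and 87, against 5.29, 28.2 and 17.5 for Lin- mice 56, 57 and 91. Mice 62 and 63 stood far above Lin-, and mouse 87 lay inside the Lin- range. The log2 difference was 2.89 ± 0.95 (limma unadjusted p = 0.0153, adjusted p = 0.441) and 3.92 without mouse 87 (limma adjusted p = 0.0128). DESeq2 called Rab37 with all libraries (adjusted p = 0.00328). With the same libraries edgeR gave an adjusted p of 0.393, and the authors' deposited table lists 0.627, so the call depended on the method. Summed reads of the 6 mast cell and basophil markers had the same order among the Lym mice, at 1146, 367 and 118 CPM in Lym and 54.9 to 103 in Lin-. In normalized counts, Cpa3 was at 15971, 3966 and 343 in Lym and 6.19 to 196 in Lin-, and Gata2 at 6521, 2938 and 1505 in Lym and 798 to 1152 in Lin-. The others did not separate the groups, with Mcpt8 at 140, 209 and 194 in Lym and 162 to 220 in Lin-, and Ms4a2 at 90.8, 8.95 and 21.9 in Lym and 7.22 to 42.2 in Lin-. Hdc overlapped too, at 1345, 498 and 343 in Lym and 100.05 to 583 in Lin-, and Fcer1a had no read in any library. The part of these markers in the Rab37 result was not tested.

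Rab6b, the less widespread of the Golgi Rab6 forms and best known from brain (chromosome 9, 103111787 to 103185276), was at 87.5, 83.9 and 26.7 in Lym, with Lin- at 24.7, 15.8 and 8.25. The groups did not overlap, but mouse 87 lay within a few counts of the highest Lin- mouse. The log2 difference was 1.83 ± 0.60 (limma adjusted p = 0.441) and 2.37 without mouse 87 (limma adjusted p = 0.0303). Its paralog Rab6a carried the bulk of Rab6 RNA, with 97.1% ± 1.3 of the per-kb Rab6 level in Lym and 99.3% ± 0.3 in Lin- (SD, n = 3 each).

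Rab11b and Rab21 differed less. Rab11b of recycling endosomes was at 1855, 2095 and 1828 in Lym, with Lin- at 1648, 1479 and 1672, a small gap without overlap (log2 difference 0.27 ± 0.12, limma adjusted p = 0.495). Rab21, which binds integrins and controls their endocytosis, was at 3693, 3328 and 2184 against 2602, 2519 and 2344. Mouse 87 lay below all Lin- mice for Rab21, and only without that mouse did it pass (limma adjusted p = 0.629 with all mice and 0.0285 without mouse 87). Over all 41 tested Rabs, 23 had a difference above 0 and 18 below, with a median of 0.03.

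**Figure D3:**
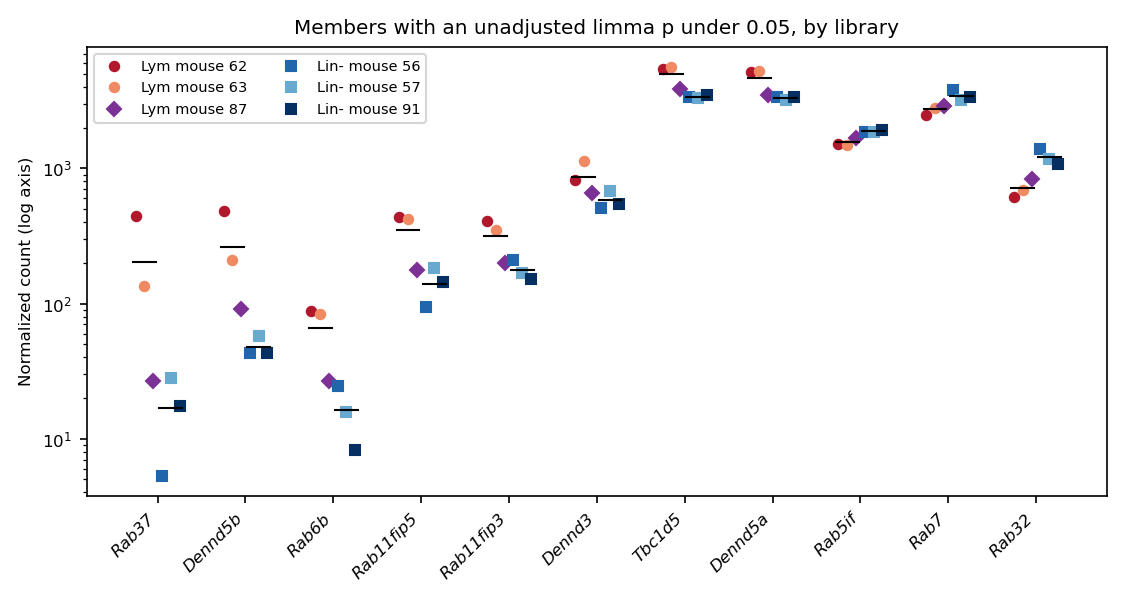
Normalized counts, on a log axis, of the 11 genes with an unadjusted limma p under 0.05, ordered by their difference, with a point for each of the 6 libraries and black lines at the group means. Lym mouse 87 (purple diamonds) lies at or near the Lin- squares in most genes, as for Rab37 (26.7, with Lin- at 5.29 to 28.2) and Tbc1d5 (3837, with Lin- at 3313 to 3465).

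The promoters of 2 genes higher in Lym and 2 lower in Lym are shown, because these 4 had the largest differences in each direction among the 16 genes whose groups did not overlap. The sequences are from RefSeq (GRCm38.p6). Each run is the 250 bases before a transcript start in RefSeq, 5′ to 3′ on the gene's strand. The RefSeq starts of Rab6b and Rab32 lie inside the gene bounds given above, so the Rab6b window lies within those bounds and the Rab32 window overlaps them. Capitals mark matches, on either strand, to the letters searched, which were those of the E-box (CACGTG), of the GC box (GGGCGG), of the CCAAT box, of the Meis motif (TGACAG), of the GATA motif (AGATAA), of the Runx motif (TGTGGT) and of the ETS motif (CCGGAA). The windows are chr6:149101681-149101930 (minus strand) for Dennd5b, chr9:103111824-103112073 (plus strand) for Rab6b, chr10:10558208-10558457 (minus strand) for Rab32 and chr6:88045271-88045520 (minus strand) for Rab7.
Dennd5b: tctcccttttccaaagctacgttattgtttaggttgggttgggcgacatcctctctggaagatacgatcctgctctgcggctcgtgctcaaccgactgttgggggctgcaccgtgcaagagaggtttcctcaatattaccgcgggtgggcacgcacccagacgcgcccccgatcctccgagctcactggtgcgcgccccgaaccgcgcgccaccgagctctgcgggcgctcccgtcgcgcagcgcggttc
Rab6b: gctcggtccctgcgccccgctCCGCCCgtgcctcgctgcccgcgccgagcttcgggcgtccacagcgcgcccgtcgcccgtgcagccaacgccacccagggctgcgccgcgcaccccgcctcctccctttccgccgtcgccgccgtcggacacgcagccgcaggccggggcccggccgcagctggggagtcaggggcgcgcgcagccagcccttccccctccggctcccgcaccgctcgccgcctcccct
Rab32: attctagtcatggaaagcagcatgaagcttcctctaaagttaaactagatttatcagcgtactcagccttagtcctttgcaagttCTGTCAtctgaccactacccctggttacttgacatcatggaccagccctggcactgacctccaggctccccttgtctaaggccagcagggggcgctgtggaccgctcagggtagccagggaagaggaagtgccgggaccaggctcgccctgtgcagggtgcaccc
Rab7: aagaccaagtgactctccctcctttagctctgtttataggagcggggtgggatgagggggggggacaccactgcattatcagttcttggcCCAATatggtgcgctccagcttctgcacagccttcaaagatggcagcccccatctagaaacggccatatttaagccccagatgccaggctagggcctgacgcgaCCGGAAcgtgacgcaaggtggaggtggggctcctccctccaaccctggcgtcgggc

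The promoters held few of these letters. The Dennd5b window, with a GC content of 63.6%, held none of the 7 motifs, and the Rab6b window, at 80.8% GC, held 1 GC box. The Rab32 window, at 55.6% GC, held 1 Meis match, and the Rab7 window, at 59.2% GC, held 1 CCAAT and 1 ETS match. No motif was shared between the 4 windows. Promoters were found for 79 of the 95 tested genes. A GC box stood in 68.4% of those 79 and in 32.7% of all 32851 windows in the table. The E-box stood in 12.7% against 6.02%, and the ETS letters in 19.0% against 12.0%. The GATA letters went the other way, with 0.0% of the 79 against 9.99% of all windows. The Meis letters stood in 16.5% against 15.9%, the Runx letters in 16.5% against 14.0% and CCAAT in 38.0% against 33.8%. The 79 windows belong to genes that entered the test, while the 32851 windows were not limited to such genes. The motif shares were not counted over the windows of all tested genes alone, so these contrasts show no trait of the family. A match describes the letters and is not a binding site, and no test was made.

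Among the partners with a Rab name, the Rab11 effectors Rab11fip5 and Rab11fip3 were higher in Lym mice 62 and 63. Rab11fip5 was at 440, 424 and 178 for Lym mice 62, 63 and 87, against 93.5, 182 and 144 for Lin- mice 56, 57 and 91. Mouse 87 lay inside the Lin- range, and the log2 difference was 1.24 ± 0.40 (limma adjusted p = 0.439, and 0.0134 without mouse 87). Rab11fip3, which also acts in cytokinesis, was at 405, 349 and 198 against 209, 167 and 153. It showed the same layout, with a log2 difference of 0.79 ± 0.30 (limma adjusted p = 0.457, and 0.0249 without mouse 87). Their relative Rab11fip4 did not follow, at 179, 291 and 1197 in Lym, with Lin- at 393, 167 and 738, with its highest values in mice 87 and 91. It was picked for mention after its values were seen.

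Rab5if, a small membrane protein named for binding Rab5, was lower in every Lym mouse, at 1507, 1490 and 1691 against 1873, 1851 and 1936. The gap was narrow but without overlap (log2 difference -0.27 ± 0.11, limma adjusted p = 0.471). Exons of Rab5if share 731 bases with Sla2 on the other strand. Rab3gap1, which with Rab3gap2 forms a complex that acts on Rab3 and Rab18, was at 2961, 2417 and 2113 against 2043, 2023 and 2047. All 3 Lym values lay above Lin-, the lowest by a small margin (limma adjusted p = 0.524). Rab3gap2 was at 3281, 4507 and 4485 against 3418, 3563 and 4143 with overlap. Rab3ip, the exchange factor for Rab8, overlapped as well, at 398, 490 and 333 against 382, 349 and 294.

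The DENN gene with the widest gap was Dennd5b, and it was the only gene of the 118 called in the authors' deposited table, where 101 of 31604 genes (0.32%) were called. Dennd5b (chromosome 6, 148988071 to 149101680, minus strand) and its paralog Dennd5a act on Rab39 and bind Rab6, and in mice Dennd5b is needed for lipid export from intestinal cells. Dennd5b was at 483, 210 and 91.5 for Lym mice 62, 63 and 87, against 43.2, 57.2 and 43.3 for Lin- mice 56, 57 and 91. All 3 Lym mice stood above Lin-, in a range that spans several fold. The log2 difference was 2.10 ± 0.54 (limma unadjusted p = 0.00421, adjusted p = 0.42) and 2.70 without mouse 87 (limma adjusted p = 0.00691). The authors' deposited table gives a log2 fold change of 1.44 with an adjusted p of 0.000362, signed here as Lym minus Lin-. DESeq2 on the recovered reads gave 2.45, so the deposited value may not be on the same scale as the differences given here. DESeq2 gave an adjusted p of 0.00132 and edgeR 0.393. Exons of Dennd5b share 1310 bases with Gm26540 and 323 with Gm15781 on the opposite strand, and whether counting used the strand is not given in the sources used here.

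Dennd5a was the most abundant DENN gene per length, at 535 ± 116 per kb in Lym and 382 ± 11.5 in Lin- (SD, n = 3 each). Its normalized counts were 5206, 5239 and 3483 in Lym, with Lin- at 3388, 3198 and 3349. The groups did not overlap, and mouse 87 lay close above Lin- (log2 difference 0.46 ± 0.17, limma adjusted p = 0.451, and 0.00778 without mouse 87). Even in Lym, Dennd5b made up 2.5% ± 1.6 of the summed Dennd5 level per kb, against 0.7% ± 0.1 in Lin-. Dennd3, the exchange factor for Rab12, was at 823, 1126 and 656 against 513, 685 and 548, with mouse 87 inside the Lin- range (limma adjusted p = 0.464, and 0.0457 without mouse 87).

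The Rab10 exchange factors Dennd4a, Dennd4b and Dennd4c were next in level and overlapped between groups. Dennd4b was at 1599, 1830 and 1726 against 1522, 1706 and 1449. Dennd4a was at 2528, 3402 and 3033 against 2890, 2669 and 2793, and Dennd4c at 1646, 1625 and 1313 against 1383, 1383 and 1233. Their shares of the summed per-kb Dennd4 level were close, at 44.2% ± 1.5 for Dennd4b in Lym and 44.3% ± 2.1 in Lin- (SD, n = 3 each). Over the 14 DENN genes 9 had a difference above 0, or 64.3% beside 48.7% of all genes, with a median of 0.17. At an unadjusted limma p under 0.05 stood 3 of 14 (21.4%), all higher in Lym, beside 5.96% of all genes in that direction. limma put the same 3 genes, Dennd5b, Dennd5a and Dennd3, past the adjusted threshold without mouse 87 and with library weights.

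Most TBC genes had slightly higher values in Lym. Of 27 tested, 20 had a difference above 0, or 74.1%, beside 56.1% of the Rabs and 48.7% of all genes. In 7 of the 27 all Lym values lay above all Lin- values, and in none did they lie below. That is 25.9%, against 8.49% of all genes apart in that direction. Only Tbc1d5 had an unadjusted limma p under 0.05. Reads of the 30 TBC genes together came to 1684, 1608 and 1471 CPM for Lym mice 62, 63 and 87, against 1387, 1415 and 1381 for Lin- mice 56, 57 and 91. These counts carry no test, and genes in a library vary together.

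Tbc1d5, which switches off Rab7 and binds the retromer coat, was at 5463, 5584 and 3837 in Lym, with Lin- at 3357, 3313 and 3465. All Lym values lay above Lin-, by a wide margin in mice 62 and 63. The log2 difference was 0.53 ± 0.15 (limma unadjusted p = 0.00796, adjusted p = 0.421, and 0.00585 without mouse 87). Its target Rab7 had the opposite order of groups in RNA, as given above, and a link between the genes was not tested. Tbc1d15 and Tbc1d2, which also act on Rab7, overlapped between groups. Tbc1d15 was at 3460, 2852 and 2353 against 2626, 2431 and 2085, and Tbc1d2 at 194, 285 and 344 against 283, 487 and 380.

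The other 6 TBC genes with groups apart had ratios of means from 1.10 to 1.39. Tbc1d13, which acts on Rab35, was at 1556, 1608 and 1612 in Lym, with Lin- at 1256, 1406 and 1366. Tbc1d20, which acts on Rab1 and Rab18, was at 1368, 1255 and 1138 against 1087, 1104 and 1096. Tbc1d10b, a regulator of Rab27a and Rab35, was at 2163, 2195 and 2246 against 2154, 1801 and 2027. In Tbc1d13 and Tbc1d10b mouse 87 had the highest Lym value, and in Tbc1d20 the lowest. Tbc1d22a, Tbc1d22b and Tbc1d8b made up the rest, with limma adjusted p-values of 0.634, 0.522 and 0.501. Tbc1d9b, the most abundant TBC gene per length and a regulator of Rab11a, was at 6279, 5202 and 3862 against 3818, 3708 and 4176. It overlapped through mouse 87 and passed only without it (limma adjusted p = 0.0249).

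Tbc1d16, which acts on Rab4a, had the largest TBC difference. It was at 234, 189 and 18.1 for Lym mice 62, 63 and 87, against 34.4, 35.2 and 16.5 for Lin- mice 56, 57 and 91. Mouse 87 lay inside the Lin- range, and the log2 difference moved from 1.73 ± 0.87 (limma adjusted p = 0.524) to 2.86 without that mouse (limma adjusted p = 0.00778). Tbc1d2b was level between groups, at 2415, 2766 and 3374 against 2449, 2880 and 2871. Tbc1d7, a subunit of the tuberous sclerosis complex, was at 103, 89.5 and 147 against 139, 160 and 208 (limma adjusted p = 0.524).

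Of the 118 genes, 23 were too low to test, and 3 of these (Rab38, Rab39b and Tbc1d21) had no read in any library. Rab4a, a Rab of fast receptor recycling, was at 95.3, 24.6 and 1.91 for Lym mice 62, 63 and 87, against 0.88, 5.28 and 0 for Lin- mice 56, 57 and 91. The order of the Lym mice was that of Rab37, Tbc1d16 and Dennd5b. The summed mast cell and basophil markers, given beside Rab37, had this order too. So did the 6 platelet and megakaryocyte markers (26.8, 11.7 and 2.53 CPM in Lym, with Lin- between 1.35 and 2.41) and the 9 T and NK markers (12.7, 3.07 and 1.17 CPM, with Lin- between 0.05 and 0.937, and Cd8a at 0), as did Il7r and Dntt. The part of these markers in the results was not tested. Rab40b, an adaptor of a ubiquitin ligase, was at 41.5, 6.71 and 0 and had no read in Lin-. Rab9b was at 25.8, 2.24 and 0 and likewise had none in Lin-. Tbc1d9 did not share this order, at 0, 40.3 and 3.81 against 19.4, 0.88 and 0. Of the 20 untested genes with a read, 7 were highest in Lym mouse 62 and 6 had no read in any Lin- library. The same shares were not counted over all untested genes, so these counts show no trait of the family. Rab27b, the sister of Rab27a, was at or under the floor of 3 reads in every library. Rab17, known from polarised epithelia, was at 7.85, 16.8 and 13.3 against 0, 2.64 and 0.

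**Figure D4:**
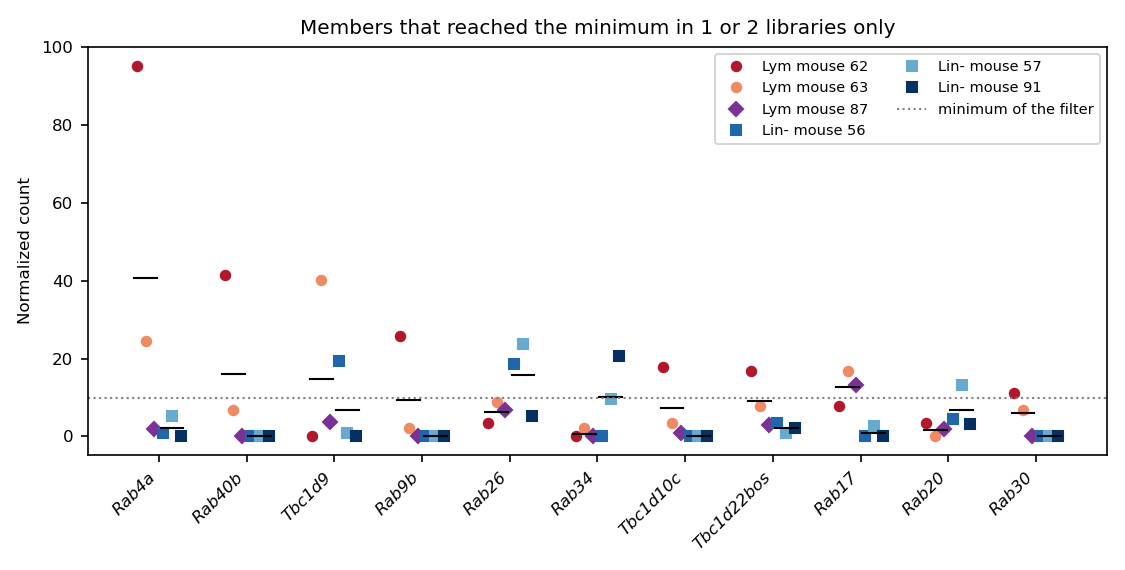
Normalized counts by library of the 11 genes that reached 10 in 1 or 2 libraries only, with black lines at group means and a dotted line at 10. Rab4a, Rab40b and Rab9b are highest in Lym mouse 62 (95.3, 41.5 and 25.8), while Rab26 and Rab34 have their highest values in Lin- (23.8 and 20.6).

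Within paralog groups the dominant gene was the same in Lym and Lin- in most cases. Rab5c supplied 76.4% ± 4.2 of the per-kb Rab5 level in Lym and 76.1% ± 4.2 in Lin-, ahead of Rab5a and Rab5b. Rab2a supplied 95.8% ± 1.7 and 97.1% ± 0.7, and Rab3d 92.9% ± 2.0 and 94.4% ± 1.4 (SD, n = 3 each). Rab1a and Rab1b were balanced, with Rab1a at 51.1% ± 9.2 and 51.7% ± 3.5. In the Rab7 group the shares did not overlap, and the related Rab7b held 22.6%, 26.2% and 24.0% for Lym mice 62, 63 and 87, against 18.7%, 17.1% and 20.3% for Lin- mice 56, 57 and 91. Other groups had shares apart too, among them Rab6, Dennd5 and Tbc1d2. In the last, Tbc1d2 held 11.5%, 14.3% and 14.2% in Lym, against 15.8%, 21.5% and 17.7% in Lin-. The Rab4 group varied most, as Rab4a held 50.3% of it in Lym mouse 62, 24.7% in mouse 63 and 1.3% in mouse 87, and at most 5.9% in Lin-. These shares rest on short reads, and reads common to near-identical paralogs could be split in ways not given in the sources used here.

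Of the other genes of the Rab cycle, 101 in 4 lists were in the table and 87 were tested. The lists were chosen with earlier results of these data known. At an unadjusted limma p under 0.05 stood 12 higher and 2 lower, or 16.1% against 10.2% of all genes, none passed the adjusted threshold, and the median difference was 0.08. Without mouse 87, limma put 13 higher and 1 lower past the adjusted threshold, beside 5.48% and 4.09% of all genes, among them Rin3 (adjusted p = 0.00948) and Inpp5b (adjusted p = 0.0214). With all mice, 7 of 35 tested effectors were higher and 0 lower at an unadjusted limma p under 0.05. That is 20.0%, beside 5.96% of all genes higher and 4.27% lower. Among the 7 were Inpp5b, a phosphatase that binds several Rabs (3213, 2136 and 1965 in Lym, with Lin- at 1564, 1512 and 1369), and the low Rilpl1 (21.3, 23.5 and 12.4 against 0, 5.28 and 1.03). Rilpl1 reached 10 normalized counts in the Lym libraries only. It thus entered the test through the group where it is high, and its place among the 7 is no result. Among 37 tested exchange factors outside the DENN names 4 were higher and 1 lower by the same measure. That is 13.5%, near the 10.2% of all genes. Rin3, which acts on Rab5 and Rab31, was at 10654, 9427 and 7421 against 6402, 6562 and 6008. All 3 Lym values of Rin3 lay above Lin-.

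Of the 7 genes of Rab prenylation and recycling only Rabggtb had an unadjusted limma p under 0.05, the beta subunit of the enzyme that attaches the lipid anchor, at 714, 725 and 937 in Lym, with Lin- at 1034, 1146 and 969 (log2 difference -0.41 ± 0.16, limma adjusted p = 0.458). The escort protein Chm, which presents new Rabs to that enzyme, was at 758, 526 and 482 against 468, 471 and 431. Of 8 tested TBC proteins without a Tbc1d name, 6 had a difference above 0, or 75.0%, beside 48.7% of all genes. Only Evi5l of these had an unadjusted limma p under 0.05 (321, 234 and 266 against 122, 231 and 175). Rabgap1 was at 1780, 1689 and 1245 against 1241, 1303 and 1223.

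Of the 5 antisense transcripts 3 were tested, and their groups overlapped. Rab10os was at 471, 349 and 323 in Lym, with Lin- at 279, 343 and 319, and it shares 143 exon bases with Rab10 (3887, 3040 and 2601 against 2867, 2373 and 2489). Rab26os was at 51.6, 15.7 and 38.1 against 52.9, 71.3 and 46.4, and Rab11fip4os1 at 4.49, 12.3 and 20.96 against 22.9, 10.6 and 23.7. Whether counting separated the strands is not known, so these values are uncertain.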

How the data were processed

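Per the labels' protocols, stranded total RNA libraries (12 PCR cycles) were read with 38 bases. The authors trimmed with Trim Galore 0.6.4 and list STAR 2.6.1d, DESeq2, featureCounts 1.6.4 and the build GRCm38.p6, per the submitters' processing notes. The annotation release and strand setting are not given in the sources used here. The deposited signal per library is a gene count divided by 1 size factor by the authors. All values up to 10000 were whole multiples of the library's step (100% within 0.01), so whole reads were recovered. The deposited table also holds, per the file headers, a p-value, a Wald score, and a log2 fold change with standard error, beside exon lengths.

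limma 3.58.1 (trend; R 4.3.3) was run on log2(normalized count + 2). edgeR 4.0.16 (TMM) and DESeq2 1.42.0 on the recovered reads, 2 other pseudocounts, TMM scaling, no filter, library weights and leaving out each mouse were alternatives. edgeR called 0 genes at an adjusted p of 0.05. Fits were tested on simulated data. GENCODE M21 held 116 of the 118 identifiers with the same version. Members and lists were chosen with earlier results of these data known. P-values measure the spread between single libraries of 3 mice per group. Floors cover counting error only.

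Genes named were those called by limma or in the authors' table, up to 8 per subfamily with an unadjusted p under 0.05, the 4 most abundant per kb in each subfamily, the 4 highest of those reaching 10 in 1 or 2 libraries, the 3 most like the gene with the smallest p, and 2 per list of other genes, of which 1 is not reported here. Others named were chosen after their values were seen. Summaries used pandas 2.3.3 in Python 3.11.15, and plots matplotlib 3.10.9.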

Additional observations from a re-analysis of the deposited data

How the results depend on the processing

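No paired analysis was possible because the mouse numbers are not shared between the groups. Over all genes limma called 0, DESeq2 called 207, a pseudocount of 8 gave 1, no filter gave 5 and library weights gave 660. Leaving out each mouse gave 0 to 1366, the highest without Lym mouse 87, 1 without Lin- mouse 91, and edgeR gave 1222 without Lym mouse 87. Of the Rab, DENN and TBC genes, 11 had an unadjusted p under 0.05, against 27 with library weights, 5 to 29 when each mouse was left out (29 without Lym mouse 87, 7 without Lym mouse 62, 6 without Lin- mouse 56, 5 without Lym mouse 63 or Lin- mouse 91) and 27 in edgeR without Lym mouse 87. After adjustment there were 0, against 3 in DESeq2, 10 with library weights, 0 to 12 when each mouse was left out and 11 in edgeR without Lym mouse 87. The 16 genes with groups apart became 20 to 39, since fewer libraries make a gap easier. The other Rab cycle genes numbered 14 at an unadjusted p under 0.05, against 23 with library weights, 4 to 26 when each mouse was left out and 26 in edgeR without Lym mouse 87. The share of all genes at an unadjusted p under 0.05 is given here only with all mice (limma, 10.2%) and without Lym mouse 87 (limma, 25.9%). The share with groups apart is likewise given only with all mice (15.6%) and without Lym mouse 87 (43.4%). Counts at an unadjusted p or with groups apart from the other runs thus show no trait of the family. Subfamily medians kept their sign in every alternative run.

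Among 392 alternative values of single named genes, 353 kept direction and call, 31 passed the threshold in the alternative only and 8 reversed, all with small differences. Rab27a (-0.003 with all mice) became 0.0010 in DESeq2 and 0.016 with library weights, and lay between -0.072 and 0.077 when each mouse was left out (0.039 without Lin- mouse 56). Dennd4a lay between -0.0072 (without Lym mouse 63) and 0.21. Tbc1d2b lay between -0.077 (without Lym mouse 87) and 0.16, at -0.026 without Lin- mouse 56, and was -0.078 in edgeR without Lym mouse 87. The cause was not tested. Depth limits the 23 untested genes, where 3 reads are worth 2.64 to 3.36 normalized counts. The alternatives in edgeR without Lym mouse 87 and the counts of groups apart were chosen after seeing the data.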

Other observations

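The 4 pseudogene entries that the naming rule left out were low. Rab7-ps1 was at 81.9, 36.9 and 43.8 normalized counts for Lym mice 62, 63 and 87, against 71.5, 39.6 and 27.8 for Lin- mice 56, 57 and 91, with overlap. Rab11b-ps2 was at 10.1, 21.3 and 12.4 against 14.997, 8.80 and 22.7. Rab5a-ps and Rab9b-ps1 did not enter the test and reached at most 6.67 and 10.1.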
